A study of Mus musculus with 12 samples.

Results

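The goblet cell and mucus genes are 10 genes of secretory epithelium: Clca1, Spink4, Reg1, Foxa3, Spdef, Agr2, Tff3, Muc1, Muc5ac and Fcgbp. They were taken by name, with earlier results of these data known, so their counts below are descriptive. Every probe annotated to 1 of them was used, 16 probes out of 45281 on the array. All 10 genes had a probe, out of 19057 annotated genes. A probe was kept when its detection p-value, the chance of such a signal from a negative control bead, was under 0.05 on at least 4 of the 12 arrays. This kept 9 probes of 5 of the 10 genes (Clca1, Spink4, Reg1, Foxa3 and Muc1), among 10453 genes that could be tested. RNA came from cultured mouse hepatic progenitor cells, bile duct-like precursors of the liver, that had been sorted for EpCAM, CD24 and CD133 and against DAPI, CD45, CD31 and TER119. All cells had been kept in William's E medium with serum, dexamethasone, IL-6, HGF, EGF, nicotinamide and ITS, and went without serum for 24 hours before treatment. There were 4 arrays of cells given recombinant IL-13 at 50 ng/mL, 4 of cells given recombinant IL-4 at 50 ng/mL and 4 of control cells given vehicle with 0.1% bovine serum albumin. The sources used here give neither the length of treatment nor the strain or age of the mice. They also do not say whether arrays of a group stem from different cultures or mice. The p-values therefore cover only the spread between these arrays, which may be technical.

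Goblet cells are mucus-secreting epithelial cells of gut, airway and bile duct. In mouse airway and gut, IL-4 and IL-13 act through a shared receptor chain and STAT6 to raise mucus genes, with the transcription factors Spdef and Foxa3 as known regulators of the secretory programme. Its products include the gel-forming mucin Muc5ac, the disulfide isomerase Agr2 that mucin folding needs, the trefoil peptide Tff3, the mucus proteins Clca1 and Fcgbp, and the small secreted proteins Spink4 and Reg1. Muc1 differs from these in being a membrane-bound mucin of the apical surface of many epithelia, bile ducts included.

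Between 40.8 and 43.9% of probes were detected on an array, and the median raw signal lay between 99.1 and 107. Of the sort markers, Cd24a was detected on every array and Prom1 (CD133) on 3 IL-13, 1 IL-4 and 1 control array, whereas the Epcam probe was detected on 0 of the 12 arrays. Of 14 bile duct markers with a probe, 10 were detected on all IL-13 arrays, 10 on all IL-4 arrays and 9 on all control arrays, among them Krt19 and Sox9. Hemoglobin signal, averaged over 3 genes, stood at 8.95 on IL-4 array 4, 6.77 on IL-4 array 2 and 5.95 on control array 4 (normalised log2 signal), and at 5.36 or less on the others. Counts of changed members are the same without these 3 arrays. Each of the 2 chips held 2 arrays of every group, but each group had fixed positions on the chip, so position and group cannot be told apart.

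Of the 10 goblet cell and mucus genes, 4 rose and 1 fell with IL-13, and 3 rose and 0 fell with IL-4 (limma, Benjamini-Hochberg adjusted p under 0.05 over all 10453 genes). Clca1, Spink4 and Reg1 rose with either cytokine, Foxa3 rose with IL-13, and Muc1 fell with IL-13. Over all genes tested, 3.5% were higher and 2.23% lower with IL-13, and 2.15% were higher and 1.32% lower with IL-4. The other 5 genes, Spdef, Agr2, Tff3, Muc5ac and Fcgbp, were detected on at most 1 array per probe. Spink4 and Clca1 passed the detection filter only through the cytokine arrays, so their count among the tested genes carries no weight of its own. In bulk RNA, more cells that express a gene and more RNA per cell cannot be told apart.

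**Figure D1:**
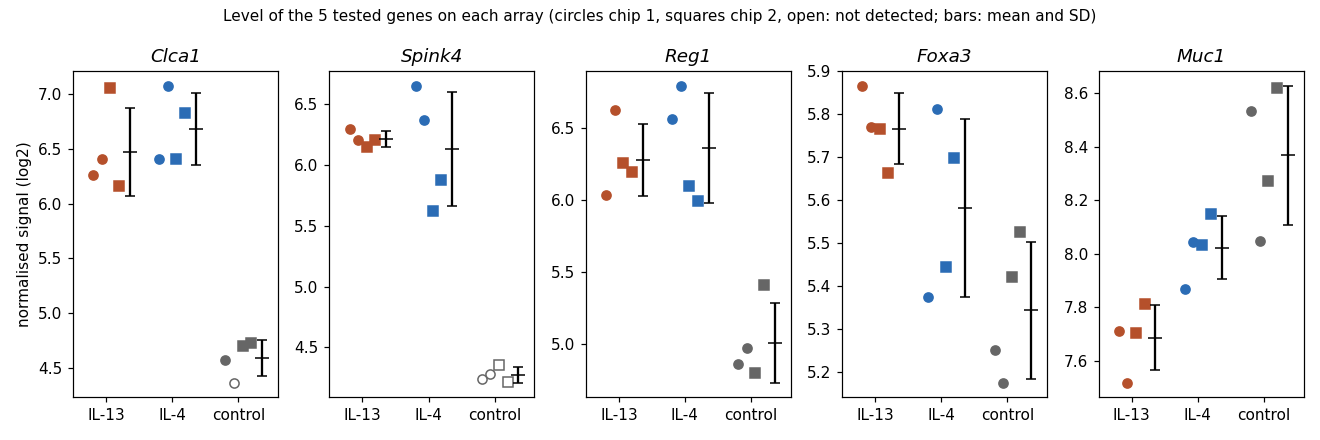
Normalised log2 signal (vertical axis, with its own scale in each panel) of the brightest probe of each tested gene on every array, with IL-13, IL-4 and control from left to right, circles for chip 1, squares for chip 2, open symbols where the probe was not detected, and bars for mean and SD of 4 arrays. For Clca1, Spink4 and Reg1 all 8 cytokine arrays lie above the 4 control arrays, and for Muc1 the 4 IL-13 arrays lie below all others.

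Clca1, formerly called Clca3 or gob-5, encodes a secreted protein of the mucus granule and is a marker of goblet cell metaplasia in mouse airway. Its brighter probe read 6.26, 6.40, 7.06 and 6.16 on IL-13 arrays 1 to 4, 6.40, 7.07, 6.41 and 6.82 on the IL-4 arrays, and 4.57, 4.37, 4.70 and 4.73 on the control arrays (normalised log2 signal). Every cytokine array lay above every control array, and the IL-13 and IL-4 arrays overlapped. In raw signal the means were 175 ± 26.8 with IL-13, 183 ± 27.5 with IL-4 and 106 ± 2.04 in controls (SD, n = 4). The rise was 1.88 ± 0.17 on the log2 scale with IL-13 (SE; 3.68-fold, adjusted p = 1.14e-06) and 2.09 ± 0.17 with IL-4 (4.24-fold, adjusted p = 3.62e-07). On each chip alone it was 1.86 and 1.90 with IL-13, and 2.27 and 1.90 with IL-4. This probe was detected on all 8 cytokine arrays and on 3 of the 4 control arrays. Its control readings lay near the lowest signal of any detected probe on those arrays, 4.54 to 4.57. The fold values are thus set against a level near background.

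A second Clca1 probe was dimmer and was detected on 0 control arrays. It read 5.83, 6.18, 6.74 and 5.80 on the IL-13 arrays, 6.39, 6.85, 6.15 and 6.49 on the IL-4 arrays, and 4.41, 4.22, 4.27 and 4.32 on the control arrays. Again the cytokine arrays lay above the controls without overlap, and IL-13 array 3 and IL-4 array 2 were the highest of their groups on both probes. In a fit of all 19915 kept probes the second probe rose by 1.83 with IL-13 (adjusted p = 1.04e-06) and by 2.17 with IL-4 (adjusted p = 1.26e-07). Over all kept probes 2.33% rose and 1.46% fell with IL-13, and 1.57% rose and 0.808% fell with IL-4. With no detected control, the change is a bound: at least 2.98-fold with IL-13 and at least 3.76-fold with IL-4. Such a bound sets the mean of the brighter group against the mean of, on each control array, the higher of the probe's own signal and the lowest signal of any detected probe, in normalised log2 values.

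Spink4, a Kazal-type serine protease inhibitor made by goblet cells of the intestine, changed by a like amount. It read 6.30, 6.21, 6.14 and 6.21 on the IL-13 arrays, 6.65, 6.37, 5.62 and 5.88 on the IL-4 arrays, and 4.24, 4.28, 4.36 and 4.21 on the control arrays. The groups did not overlap with controls, and the spread was larger with IL-4 (SD 0.47) than with IL-13 (SD 0.06) or in controls (SD 0.06). The probe was detected on all 8 cytokine arrays and on 0 control arrays, where its raw signal averaged 98.0 ± 4.35 (SD, n = 4). The fitted log2 change was 1.94 ± 0.15 with IL-13 (adjusted p = 1.74e-07) and 1.86 ± 0.15 with IL-4 (adjusted p = 3.62e-07), and the bounds were at least 3.15-fold with IL-13 and at least 2.97-fold with IL-4. The IL-4 change was 2.25 on chip 1 and 1.46 on chip 2, against 1.99 and 1.89 with IL-13.

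Reg1 encodes a small secreted C-type lectin, best known from pancreatic acinar cells and also made in the gut, which is induced by injury and inflammation. Sequence before the transcript start was at hand for 3 of the 5 tested genes, Reg1, Foxa3 and Muc1, and is printed because these genes differ in their change with the same cytokines. The stretches are 250 bases from RefSeq (mouse GRCm38.p6), 5′ to 3′ in the direction of the gene: Reg1 chr6:78425733-78425982 on the plus strand, Foxa3 chr7:19023540-19023789 on the minus strand and Muc1 chr3:89228806-89229055 on the plus strand. Capitals mark matches, on either strand, to TTCNNNNGAA (the spacing STAT6 prefers), TTCNNNGAA (the spacing of other STATs) or TATAAA, the core promoter element near the start of many genes. The letters TGTTTAC, a core bound by forkhead factors, were searched as well.
Reg1: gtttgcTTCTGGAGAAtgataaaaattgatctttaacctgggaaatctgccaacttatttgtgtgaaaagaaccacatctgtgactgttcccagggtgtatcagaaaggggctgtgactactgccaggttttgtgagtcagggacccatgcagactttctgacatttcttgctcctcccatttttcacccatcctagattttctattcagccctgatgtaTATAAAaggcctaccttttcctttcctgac
Foxa3: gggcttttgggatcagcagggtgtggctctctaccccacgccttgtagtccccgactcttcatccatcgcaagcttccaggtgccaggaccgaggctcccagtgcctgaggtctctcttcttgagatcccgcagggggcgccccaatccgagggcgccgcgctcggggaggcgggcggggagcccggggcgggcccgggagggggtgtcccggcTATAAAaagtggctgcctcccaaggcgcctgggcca
Muc1: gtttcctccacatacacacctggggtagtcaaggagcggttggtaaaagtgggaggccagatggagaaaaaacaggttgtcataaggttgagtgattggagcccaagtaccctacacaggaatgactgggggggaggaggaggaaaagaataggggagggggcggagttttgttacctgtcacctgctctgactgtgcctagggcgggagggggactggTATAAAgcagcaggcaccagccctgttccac
The Reg1 stretch holds 1 match to TTCNNNNGAA, 244 bases before the start, and a TATAAA 30 bases before it. The Foxa3 and Muc1 stretches hold a TATAAA at 36 and 31 bases, and the other letters searched are not in them. Among 32851 mouse promoters of the same length, 5.85% hold TTCNNNNGAA, 7.02% TTCNNNGAA, and 12.4% hold TATAAA, while TGTTTAC is found in 3.17%. No match here overlaps another, and a match describes the letters only.

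Reg1 read 6.03, 6.62, 6.26 and 6.19 on the IL-13 arrays, 6.56, 6.79, 6.10 and 5.99 on the IL-4 arrays, and 4.86, 4.97, 4.79 and 5.41 on the control arrays. All cytokine arrays lay above all controls, the nearest being IL-4 array 4 at 5.99 and control array 4 at 5.41. Reg1 was detected on all 12 arrays, so its change is measured on both sides. Most of its control readings still lay not far above the lowest signal of any detected probe on those arrays, 4.54 to 4.57. It rose by 1.27 ± 0.17 on the log2 scale with IL-13 (2.41-fold, adjusted p = 8.76e-05) and by 1.35 ± 0.17 with IL-4 (2.55-fold, adjusted p = 6.49e-05). On chip 1 the change was 1.41 with IL-13 and 1.76 with IL-4, and on chip 2 it was 1.12 with IL-13 and 0.94 with IL-4. Since Reg1 is also a pancreatic gene, acinar markers were set beside it. Of 9 with a probe, 1 was detected on all IL-13 arrays, 1 on all IL-4 arrays and 0 on all control arrays, and Cpa1, Cela2a and Bhlha15 were detected on no array of any group. The summed raw signal of the 9 ranged from 911 to 948 with IL-13, from 888 to 943 with IL-4 and from 874 to 941 in controls. Only 2 of the 9 could be tested. The amylase Amy2a5 rose by 0.71 with IL-13 (adjusted p = 1.37e-04) and by 0.44 with IL-4 (adjusted p = 0.0147). Amy2a5 was detected on 4 IL-13, 4 IL-4 and 2 control arrays, so it passed the detection filter only through the cytokine arrays. Its mean raw signal was 123 with IL-13, 114 with IL-4 and 107 in controls. The related genes Reg2, Reg3a, Reg3d, Reg3g and Reg4 were detected on 0 arrays, and Reg3b, detected on all 12, had mean raw signals of 133 with IL-13, 128 with IL-4 and 138 in controls.

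Foxa3, a forkhead transcription factor of liver and gut and a known inducer of goblet cell genes in mouse airway, changed little. It read 5.87, 5.77, 5.77 and 5.66 on the IL-13 arrays, 5.37, 5.81, 5.44 and 5.70 on the IL-4 arrays, and 5.25, 5.18, 5.42 and 5.53 on the control arrays. The 4 IL-13 arrays lay above all controls, and the IL-4 arrays overlapped both other groups. The log2 change was 0.42 ± 0.10 with IL-13 (1.34-fold, adjusted p = 0.0181) and 0.24 ± 0.10 with IL-4 (1.18-fold, adjusted p = 0.279). The IL-13 call rests on single arrays: the adjusted p was 0.0597 without control array 1, 0.0669 without control array 2 and 0.0570 without IL-13 array 1. On chip 1 alone the change was 0.60, and on chip 2 alone it was 0.24 (adjusted p = 0.481). In a fit of all 45281 probes with no filter, in which 1.51% of probes changed with IL-13 and 0.914% with IL-4, Foxa3 did not pass with IL-13 (adjusted p = 0.0663). With no filter but 1 probe per gene it did pass (adjusted p = 0.0407).

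Muc1 moved the other way. Its brightest probe read 7.71, 7.52, 7.70 and 7.81 on the IL-13 arrays, 7.87, 8.04, 8.03 and 8.15 on the IL-4 arrays, and 8.53, 8.05, 8.27 and 8.62 on the control arrays. The IL-13 arrays lay below every IL-4 and every control array, and the highest IL-4 array overlapped the lowest control. Mean raw signal was 290 ± 12.8 with IL-13, 331 ± 20.3 with IL-4 and 428 ± 48.4 in controls (SD, n = 4). With IL-13 the log2 signal fell by 0.68 ± 0.11 (adjusted p = 6.69e-04), by 0.67 on chip 1 and 0.69 on chip 2. With IL-4 the log2 difference was -0.34 ± 0.11 (95% interval -0.58 to -0.11, adjusted p = 0.111). This missed the threshold, but it passed without control array 2, the lowest of the controls, at -0.45 (adjusted p = 0.0208).

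Muc1 had 3 further kept probes, all detected on all 12 arrays. The second read 7.01, 6.61, 6.80 and 6.92 on the IL-13 arrays, 6.96, 7.36, 7.18 and 7.24 on the IL-4 arrays, and 7.76, 7.32, 7.32 and 7.82 on the control arrays. The third averaged 5.43 ± 0.28 with IL-13, 5.69 ± 0.17 with IL-4 and 5.95 ± 0.29 in controls, and the fourth averaged 4.93 ± 0.14 with IL-13, 5.18 ± 0.19 with IL-4 and 5.42 ± 0.26 in controls (SD, n = 4). All 4 probes thus had the order IL-13 below IL-4 below control in their means. In the fit of all kept probes the 4 fell with IL-13 by 0.68, 0.72, 0.52 and 0.49 (adjusted p = 8.87e-04, 0.00159, 0.0484 and 0.0290). In the fit of all 45281 probes with no filter, probes 3 and 4 did not pass with IL-13 (adjusted p = 0.166 and 0.100), and probes 1 and 2 did (adjusted p = 0.00817 and 0.0152). With IL-4 their differences in the fit of kept probes lay between -0.37 and -0.24 and 0 of the 4 passed (adjusted p between 0.148 and 0.505). The 4 probes read the same RNA and are not independent of each other.

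**Figure D2:**
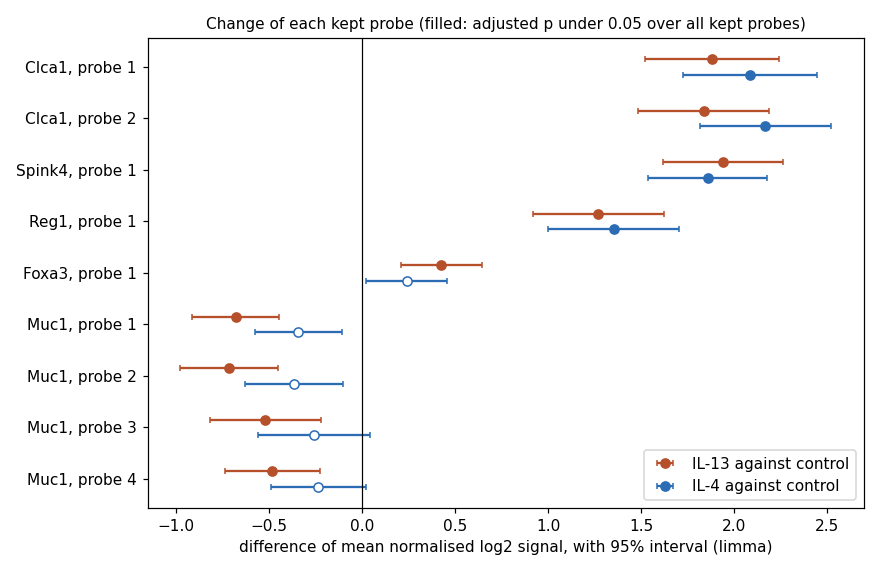
Difference of mean normalised log2 signal against control (horizontal axis, with 95% intervals from limma) for each of the 9 kept probes, with IL-13 above IL-4 in each row and filled symbols where the adjusted p over all kept probes was under 0.05. Both Clca1 probes and the Spink4 probe lie near 2, Reg1 between 1 and 2, and all 4 Muc1 probes below 0.

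The 5 genes that did not pass the detection filter include the regulator Spdef and the gel-forming mucin Muc5ac, and their 7 probes read at or near background. Spdef, an ETS transcription factor needed for goblet cell maturation, read between 4.22 and 4.31 with IL-13, between 4.20 and 4.40 with IL-4 and between 4.21 and 4.30 in controls, and was detected on 0 of the 12 arrays. Agr2 was detected on 1 IL-4 array, and IL-13 arrays 3 and 4 lay just short of the detection limit. Its means were 4.40 ± 0.17 with IL-13, 4.41 ± 0.15 with IL-4 and 4.39 ± 0.10 in controls (SD, n = 4). For both genes the 3 groups overlapped.

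Tff3 and Fcgbp, the IgG Fc-binding protein of the mucus gel, were detected on 0 arrays. Tff3 averaged 4.30 ± 0.08 with IL-13, 4.27 ± 0.05 with IL-4 and 4.34 ± 0.13 in controls, and Fcgbp averaged 4.28 ± 0.06 with IL-13, 4.27 ± 0.04 with IL-4 and 4.35 ± 0.10 in controls (SD, n = 4). The groups overlapped for both. Muc5ac has 3 probes, and the brightest of them was detected on control array 1 only (raw signal 113). That array is the highest of the 12 for this probe, and its other 11 readings lie between 4.17 and 4.42. Over the 7 probes, 2 of 84 readings were detected and raw signal ran from 91.7 to 113. In the unfiltered fit the largest difference was 0.16 with IL-13 and 0.14 with IL-4 in absolute log2 terms, 0 of the 7 probes had an unadjusted p under 0.05 in any comparison, and the smallest adjusted p was 0.633 with IL-13, 0.752 with IL-4 and 0.804 between the cytokines. A signal at background sets no level, so a change below the array's reach was not detectable here.

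**Figure D3:**
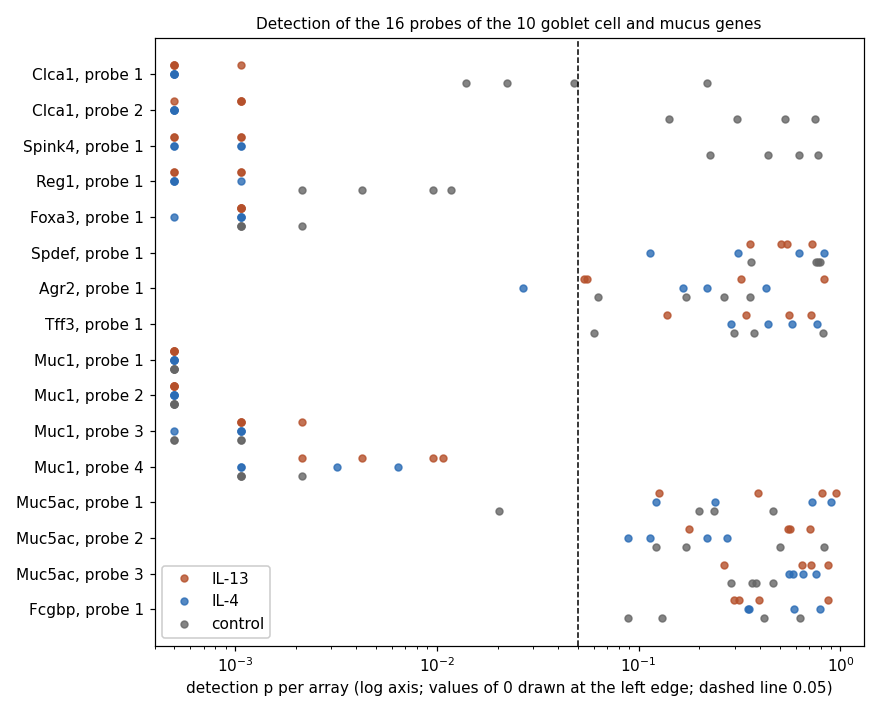
Detection p-value on each array (horizontal log axis, dashed line at 0.05, values of 0 drawn at the left edge) of the 16 probes of the 10 genes, with IL-13, IL-4 and control from top to bottom in each row. Spink4 and the second Clca1 probe lie left of the line on the cytokine arrays only, and the probes of Spdef, Agr2, Tff3, Muc5ac and Fcgbp lie right of it but for 2 readings.

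Between the cytokines, 0 of the 10 genes differed at an adjusted p under 0.05 (limma), as did 0% of all genes tested, with 852 of the 10453 genes at an unadjusted p under 0.05. The difference of IL-13 minus IL-4 was -0.21 for Clca1 (95% interval -0.57 to 0.16, adjusted p = 0.756), 0.08 for Spink4 (-0.24 to 0.41, adjusted p = 0.903) and -0.08 for Reg1 (-0.44 to 0.27, adjusted p = 0.910). For Foxa3 it was 0.18 (-0.03 to 0.40, adjusted p = 0.627). For Muc1 it was -0.34 (-0.57 to -0.10), with an unadjusted p of 0.00727 and an adjusted p of 0.479. Thus the fall of Muc1 with IL-13 and its smaller difference with IL-4 are not shown to differ once all genes are counted, although the 4 IL-13 arrays lay below the 4 IL-4 arrays. The intervals around 0 do not show that the cytokines act alike on these genes, and the comparisons of each cytokine with control share the same 4 control arrays.

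Related genes were counted from lists of genes known for a role in mucus or secretory cells. Of 15 further mucin genes, 7 had a probe. Muc2, the main gel-forming mucin of the intestine, and Muc4, Muc6, Muc15, Muc20 and Emcn were detected on 0 arrays, and Muc13 was detected on 3 arrays of each group with 0 changes called. Of 39 further goblet cell products with a probe, 11 were tested. Bcas1 and the chloride channel Ano1 rose, and Clca3b, a relative of Clca1, fell with either cytokine. For comparison, 3.5% of all genes tested rose and 2.23% fell with IL-13, and 2.15% rose and 1.32% fell with IL-4. The median log2 change of the 11 was -0.06 with IL-13 and -0.11 with IL-4, against -0.01 in each case over all genes. Bcas1 rose by 0.86 with IL-13 (adjusted p = 0.00110) and by 0.55 with IL-4 (adjusted p = 0.0479), and Ano1 rose by 0.47 with IL-13 (adjusted p = 0.00379) and by 0.36 with IL-4 (adjusted p = 0.0346). Bcas1 was detected on 4 IL-13, 4 IL-4 and 3 control arrays, so, like Clca1, it passed the detection filter only through the cytokine arrays. Clca3b, detected on all 12 arrays, averaged 8.45 ± 0.23 with IL-13, 8.51 ± 0.17 with IL-4 and 9.12 ± 0.20 in controls, so it fell while Clca1 rose (adjusted p = 0.00179 with IL-13 and 0.00552 with IL-4). Zg16, Retnlb, Itln1 and Agr3, other goblet cell markers, were detected on 0 arrays. By contrast, Tff2, Sytl2, Rep15, Clca3a1 and Clca4a of the same list were detected on all 12 arrays, without a call. Mean raw signal of Tff2 was 226 with IL-13, 246 with IL-4 and 221 in controls.

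Among enzymes that build mucin sugars, 15 of 26 with a probe were tested. With IL-13, 2 rose and 1 fell, and with IL-4, 1 rose and 0 fell. Among all genes tested, 3.5% rose and 2.23% fell with IL-13, and 2.15% rose and 1.32% fell with IL-4. The sialyltransferase St3gal4 rose by 0.69 with IL-13 (adjusted p = 6.36e-05) and by 0.62 with IL-4 (adjusted p = 2.98e-04). The galactosyltransferase B4galt1 rose by 0.30 with IL-13 (adjusted p = 0.0461), and its difference of 0.29 with IL-4 missed the threshold (adjusted p = 0.0685). Gcnt1, which makes core branches of O-glycans, fell by 0.63 with IL-13 (adjusted p = 0.00536), and a second probe of it, at -0.26, did not pass (adjusted p = 0.232). The median change of the 15 was -0.02 with IL-13 and -0.02 with IL-4. Of 20 tested genes of secretory protein folding and the endoplasmic reticulum, 0 changed with either cytokine, and their median change was -0.02 with IL-13 and -0.01 with IL-4.

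Of 14 tested transcription factors of secretory epithelial fate, 5 rose with IL-13 and 2 with IL-4, and 0 fell. Over all genes tested, 3.5% rose with IL-13 and 2.15% with IL-4. The median change of the 14 was 0.20 with IL-13 and 0.16 with IL-4. Elf3, an epithelial ETS factor, rose by 1.77 ± 0.12 with IL-13 (adjusted p = 1.41e-08) and by 1.67 ± 0.12 with IL-4 (adjusted p = 3.74e-08), and both of its further probes rose as well. Klf4, needed for goblet cell differentiation in mouse colon, rose by 0.78 with IL-13 (adjusted p = 9.11e-05) and by 0.68 with IL-4 (adjusted p = 5.30e-04). A further Klf4 probe did not pass with IL-4 (0.24, adjusted p = 0.283). Creb3l1, a membrane-bound factor of the endoplasmic reticulum, rose by 0.61 with IL-13 (adjusted p = 0.00327), as did Klf5 by 0.48 and Gata6 by 0.38, which were named after their values were seen. A second Gata6 probe did not pass with IL-13 (0.33, adjusted p = 0.0773). Creb3l1 was detected on 4 IL-13, 3 IL-4 and 1 control arrays, so it passed the detection filter only through the cytokine arrays. Atoh1, the factor that starts the secretory lineage in the intestine, was detected on 0 arrays, and Foxa1 and Foxa2 differed from controls by 0.14 and 0.24 with IL-13, short of the threshold.

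Of 10 tested genes known to respond to IL-4 or IL-13 in epithelia, 6 rose with IL-13 and 5 with IL-4. Over all genes tested, 3.5% rose with IL-13 and 2.15% with IL-4. The median change of the 10 was 0.80 with IL-13 and 0.41 with IL-4. Chil4, a chitinase-like protein, had a mean raw signal of 10759 with IL-13, 9324 with IL-4 and 105 in controls, where it was detected on 1 of 4 arrays. The near-identical Chil3 was at least 27.1-fold higher with IL-13 and at least 26.9-fold higher with IL-4. Probes of this pair may read each other's RNA. Cish, a STAT target, rose by 2.64 with IL-13 and 2.46 with IL-4. The others were Tgm2, Slc26a4 and, with IL-13, Il13ra2, named after their values were seen. Chil3, Slc26a4 and Il13ra2 were detected on 0 control arrays. Like Chil4, they passed the detection filter only through the cytokine arrays, so the count and median carry no weight of their own. Ranked among all genes by p, Clca1, Spink4 and Reg1 stood at 37, 24 and 95 with IL-13 and at 23, 22 and 54 with IL-4. This is an order of test results, not of the size of change in RNA.

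**Figure D4:**
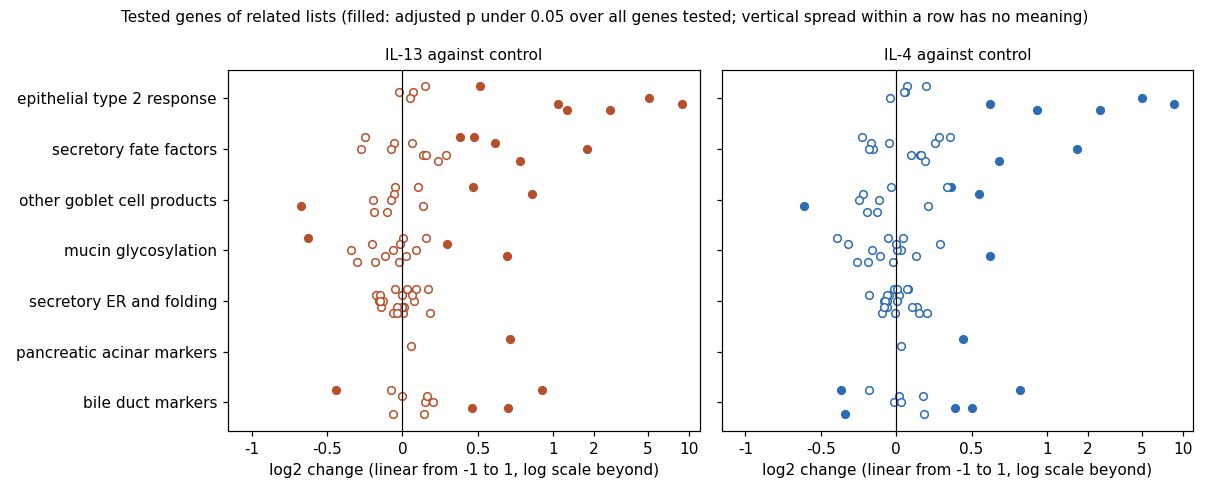
Log2 change against control (horizontal axis, linear from -1 to 1 and logarithmic beyond) of each tested gene of 7 related lists, with IL-13 on the left and IL-4 on the right and filled symbols where the adjusted p over all genes was under 0.05. Most genes of mucin glycosylation and secretory folding lie near 0, and the points farthest to the right are Chil4, Chil3 and Cish, of which Chil4 and Chil3 were near or below detection in controls.

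Of markers of other epithelial cell types of gut and airway, few gave a signal. Of 6 Paneth cell and 8 enteroendocrine markers with a probe, 0 were detected on enough arrays to be tested. Of 8 tuft and 6 ciliated cell markers, 1 each was tested and 0 changed. Bile duct markers were detected as a group, with summed raw signals from 27388 to 30407 with IL-13, from 25312 to 30494 with IL-4 and from 22552 to 28177 in controls. The keratins Krt8 and Krt18 gave much of these sums, with mean raw signals of 11669 and 7216 with IL-13. In controls these means were 11297 and 5708. Cftr was detected on 0 arrays of any group, and Sctr on 1 IL-13 array only. Of the 11 bile duct markers tested, 3 rose (Aqp1, Slc4a2 and Krt18) and 1 fell (Krt7) with IL-13. The same 3 rose with IL-4 while Krt7 and Sox4 fell, though a second Sox4 probe did not pass. The shares over all genes tested were 3.5% higher and 2.23% lower with IL-13, and 2.15% higher and 1.32% lower with IL-4. Of 4 tested stellate cell and fibroblast markers, Acta2 alone changed with IL-13, and the median change of the 4 was 0.04. The brightest Acta2 probe fell by 2.07 (adjusted p = 6.54e-05). Of its 3 further probes, 1 fell by 1.07 (adjusted p = 0.00382), and 2 did not pass, at -0.50 (adjusted p = 0.0722) and -0.56 (adjusted p = 0.0875). The summed raw signal of the 10 markers with a probe was 1032 to 1093 with IL-13, 1043 to 1215 with IL-4 and 1188 to 1402 in controls, and that of Acta2 averaged 156 with IL-13, 248 with IL-4 and 395 in controls. Pdgfrb, Lrat, Col1a1, Col1a2, Col3a1 and Dcn were detected on 0 arrays of any group. The part of the Acta2 change in the results for the goblet cell and mucus genes was not tested.

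The genes whose pattern over the 12 arrays lay nearest to a member were found by the root mean square difference of log2 values after the control mean of each gene was subtracted. Nearest to Clca1 were Pla2g4c, Tmprss2, Prss35, Egln3 and Spink4, at 0.25 to 0.39. Nearest to Spink4 were Elf3, Tmprss2, Car2, Pla2g4c and Ccl17, at 0.23 to 0.28. Clca1 and Spink4 thus had 2 neighbours in common and lay close to each other. By this measure, genes with a like size of change lie near each other, so this largely restates their changes. Reg1 had Ms4a8a, Ppargc1b, Pdzk1ip1, Aldh3a1 and Cfi at 0.26 to 0.28. Foxa3 had Acadm, Mtap, Sertad4, Guf1 and Stx3 at 0.09 to 0.12, and Muc1 had Glyat, Polr1e, Prxl2a, Ankrd37 and Nnmt at 0.17 to 0.19. Foxa3 and Muc1 changed less than Clca1, Spink4 and Reg1, so many genes lie near them by this measure.

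The sizes of these changes depend on the background correction more than their calls do. With the submitters' processed values, which hold no background correction, Clca1 rose by 0.70 with IL-13 and 0.78 with IL-4, Spink4 by 0.68 with IL-13 and 0.64 with IL-4, and Reg1 by 0.48 with IL-13 and 0.50 with IL-4, all past the threshold. Foxa3 did not pass there with IL-13 (0.15, adjusted p = 0.0715), and the Muc1 difference with IL-4 did (-0.35, adjusted p = 0.0172). With 4 arrays a group, their number limits the precision of every value.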

How the data were processed

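Gene expression was measured on 12 Illumina mouse expression beadchip arrays with Cy3-labelled RNA, per the labels' protocols. GenomeStudio 2011.1 was used, per the submitters' processing notes. In the authors' deposited non-normalized table each of 45281 probes has an intensity on every array and, beside it, a detection p-value, per the file headers. A second deposited table holds log2 values without background correction and served as an alternative.

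Intensities were normalised with neqc of limma 3.58.1 (R 4.3.3): background correction estimated from the detection p-values, an offset of 16, quantile normalisation and log2. Changes of dim probes are pulled toward 0 by the offset. Probes were named from the platform annotation, 34885 of them with 1 gene symbol, and symbols were updated through gene identifiers (99.8% matched). Probes detected on at least 4 arrays were kept (19915), and the brightest probe stood for a gene. A single limma model (lmFit, eBayes, two-sided) over all 12 arrays gave every comparison, and was also run on all kept probes and on all probes with no filter. Its code was tested on simulated data.

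Members and lists were chosen with earlier results of these data known. Every member was named, with at most 3 changed genes per list, comparison and direction, and the 5 nearest genes of each tested member. Other changed genes were named after their values were seen. Alternatives changed the background correction, the offset, the scaling, the filter, the choice of probe, the variance model or the weights, took chip or replicate number as a block, or left out arrays. A value outlying among the 4 arrays of its group was looked for in 27 sets of 4 values, and 0 were found. Hemoglobin signal still stood apart on IL-4 array 4 (8.95, normalised log2 signal). Upstream sequences are RefSeq's, present for 6 of the 10 members.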

Additional observations from a re-analysis of the deposited data

How the results depend on the processing

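The number of the 10 genes past the threshold was 5 with IL-13, 3 with IL-4 and 0 between the cytokines. When only probes detected on all 12 arrays were tested it was 3 with IL-13 (Reg1, Foxa3, Muc1) and 1 with IL-4 (Reg1), since Clca1 and Spink4 were then not tested. With each array left out in turn it lay between 4 and 5 with IL-13 and between 3 and 4 with IL-4, and at 0 between the cytokines. With the replicate block it was 5 with IL-13, 3 with IL-4 and 0 between the cytokines. Arrays of the same number did not deviate together in general (r between -0.15 and 0.21, over 0.1 in 5 of 12 pairings), so the numbers were not taken to pair the arrays. Over all alternatives, the single-gene results kept their side of the threshold in 377 cases, 6 of which took the other sign, all of them differences between the cytokines that were never called (Spink4 in 3, Reg1 in 2, Clca1 in 1). Of the 7 that changed side, 5 were losses of the Foxa3 call with IL-13 and 2 were gains of a Muc1 call with IL-4. The cause was not tested. No called change reversed in any alternative run. Without background correction the log2 changes of Clca1, Spink4, Reg1 and Foxa3 with IL-13 shrank, and for Clca1 the range over the alternatives was 0.70 to 1.98. Signal over background limits Spdef, Agr2, Tff3, Muc5ac and Fcgbp, whose probes read background.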
